A study of Caenorhabditis elegans with 4 samples.

Results

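The genes described here are those of the X chromosome outside its left end in the worm Caenorhabditis elegans. Members were the genes that the deposited comparison table places on X with a start at 4 Mb or further right, without 10 gene families that occur in large clusters of similar copies (named clec, fbxa, math, bath, str, nhr, col, vit, his and msp). This gave 2125 of the 20389 genes (10.4%) and 75.4% of the 2818 genes on X. A further 626 genes lay in the left end, and 67 genes of the left-out families lay past 4 Mb. The rule used position and name and no measured value. The study made 4 mRNA-seq libraries from dissected gonads of adult hermaphrodites, 2 from met-2(n4256);him-8(tm611) and 2 from him-8(tm611) animals (rep1 and rep2 of each), with 400 gonad arms for each RNA preparation, cut at the spermatheca within about a day after the last larval stage. The him-8(tm611) mutation is shared by all 4 libraries, so that X chromosomes fail to pair and synapse in every sample, and no library came from animals with synapsed X chromosomes. The comparison asks how transcript levels in such gonads differ when MET-2 is also absent.

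HIM-8 is a zinc-finger protein that binds a pairing center near the left end of the X and is needed for the X homologs to find each other in meiosis. Chromosomes left without a synapsed partner gain dimethylation of histone H3 on lysine 9 (H3K9me2) in meiotic prophase, and MET-2 is the methyltransferase that makes most of this mark in the germ line. The X is also known as a chromosome that is poor in germline-expressed genes and largely silent in early and mid pachytene, with transcription of oogenesis genes from it late in meiotic prophase.

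Counted reads ranged from 14255714 to 49848078 per library, and 3 reads, taken as the smallest detectable number, corresponded to 0.0602 to 0.210 CPM (counts scaled to library size). These limits cover counting error only. Of the mutated genes, met-2 was at 25.8 and 52.8 CPM in met-2;him-8 and at 127 and 212 CPM in him-8, and the genotypes did not overlap. The gonad label was checked against 8 germ line and oocyte marker genes, all with reads, which summed to 15549 to 24426 CPM, while 6 sperm markers summed to 12.4 to 21.8 CPM. Markers of tissues that touch the gonad varied between libraries. The 5 intestinal markers summed to 1690 and 967 CPM in met-2;him-8 and 648 and 401 CPM in him-8. The 4 body wall muscle markers summed to 60.6 and 178 CPM in met-2;him-8 and 46.6 and 42.2 CPM in him-8. The defining transcription factors of these tissues, elt-2 and hlh-1, were below 1 CPM in every library.

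Transcripts of the X outside its left end were rare in the gonad. They made up 1.52% and 1.30% of counted reads in met-2;him-8 and 1.31% and 1.05% in him-8, although the members are 10.4% of all genes. The higher him-8 library lay just above the lower met-2;him-8 library, so the genotypes overlapped. Autosomal genes took 98.0% to 98.6% and the left end 0.268% to 0.373%. In bulk RNA of this kind, fewer cells of a type and less RNA per cell cannot be told apart.

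Most members left some trace all the same. Of the 2125 members, 1773 (83.4%) had at least 1 read in the 4 libraries together, close to the 84.4% of autosomal genes. The other 352 were listed at 0 in every library, among them rpl-25.1, a ribosomal protein gene. A 0 may not always be a measured absence, which was not tested. A smaller share than among the autosomal genes passed the expression filter for testing, 989 members (46.5%) against 54.6%. Among the tested genes the median level was 2.06 and 2.32 CPM per kilobase of exon in met-2;him-8 and 1.99 and 1.72 in him-8, where the autosomal medians were 15.1, 18.6, 16.6 and 18.1. Of the members, 22 (1.04%) reached a mean of 100 CPM, against 15.2% of autosomal genes.

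The members were next sorted by expression. All tested genes of the series were cut into quartiles of mean log2 CPM, with bounds at 1.37, 14.2 and 96.3 CPM. These classes are by reads and not per length. The tested members fell 323 in the lowest quartile (32.7%), 484 in the second (48.9%), 161 in the third (16.3%) and 21 in the highest (2.12%). The autosomal genes were spread almost evenly, with 24.0%, 21.8%, 26.1% and 28.1%. The second quartile held the most tested members, and the shortage against the autosomes was largest in the highest. The same order held in each of the 7 bins of 2 Mb along the chromosome, with 39.8% to 57.5% of the tested members of a bin in the second quartile and 0.645% to 3.73% in the highest.

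**Figure D1:**
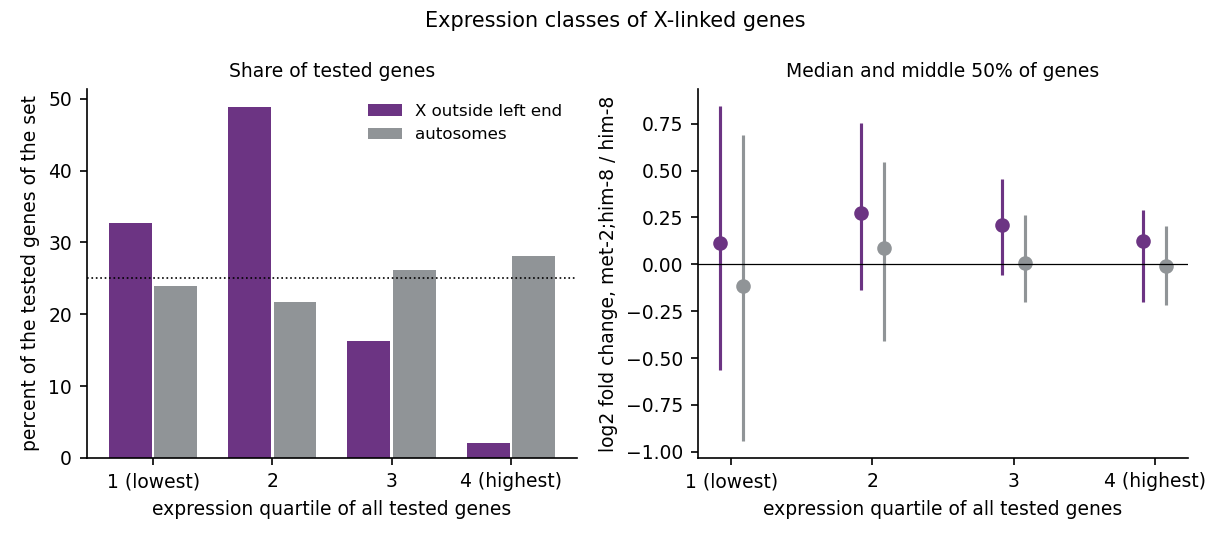
The left panel shows the percent of tested genes in each expression quartile of the whole series for the X outside its left end and for the autosomes, with a dotted line at 25%, and the right panel shows the median (point) and middle 50% of genes (line) of the log2 fold change of met-2;him-8 over him-8. Only 2.12% of tested X-linked members lay in the highest quartile, and the X-linked median was above the autosomal one in each quartile.

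No member passed the test between genotypes. With the quasi-likelihood test of edgeR and Benjamini-Hochberg adjustment over all 10875 tested genes, 0 of the 989 tested members had an adjusted p below 0.05, against 0% of all tested genes, and the smallest adjusted p of a member was 0.886. Before adjustment, 13 members were below 0.05 in the direction of met-2;him-8 (against 1.83% of all tested genes) and 10 in that of him-8 (against 3.01%). With DESeq2, which called 0.239% of all tested genes in either direction at an adjusted p below 0.05, 0 members were called. Without the expression filter the edgeR test called 9 of 1773 members (0.508%), against 0.659% of all genes tested there. The libraries of the genotypes did not overlap, with met-2;him-8 higher, in 174 members (17.6% of those tested, against 16.9% of all tested genes), and with met-2;him-8 lower in 125 (12.6%, against 19.8%). The share of members separated upward was therefore close to the background, while fewer than the background were separated downward.

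As a group the members lay slightly higher in met-2;him-8. The summed intestinal markers were also higher in both met-2;him-8 libraries than in both him-8 libraries (1690 and 967 against 648 and 401 CPM). So was the body wall muscle sum (60.6 and 178 against 46.6 and 42.2 CPM). The germ line and oocyte sum was too (18382.5 and 24426 against 17065 and 15549 CPM), although only 4 of its 8 markers were higher in both met-2;him-8 libraries. The most abundant of them was cpg-2, at 8058 and 11234 against 6996 and 5944 CPM. Lower in both were mex-3 (522 and 554 against 585 and 560 CPM) and glh-1 (1109 and 1227 against 1228 and 1664 CPM). Genotypes overlapped in the epidermal (209 and 193 against 219 and 89.9 CPM) and neuronal sums (111 and 151 against 135 and 138 CPM). They also overlapped in the sperm sum and in that of gonadal sheath and spermatheca. The part of any of these in the shift was not tested. The median log2 fold change over the 989 tested members was 0.22 (middle 50% of genes from -0.23 to 0.71), with 627 above 0 and 362 below, and the median standard error of a single member was 0.70. The autosomal median over 9580 genes was -0.00067, and that of the 277 tested genes of the left end was 0.19. The 29 tested genes of the left-out families past 4 Mb had a median of 0.30. A log2 fold change of at least 1 was estimated for 15.6% of tested members and one of -1 or less for 6.17%, where the autosomal shares were 7.92% and 7.73%. The expression filter can be passed through a single genotype, so the median was also taken without it, as 0.11 over 1773 members (autosomes -0.04), and with a filter on the mean of all libraries (at least 1 CPM), as 0.26 over 754 members (autosomes 0.01).

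The shift was spread along the chromosome. Medians of the 7 bins from left to right were 0.24 for 4 to 6 Mb (146 tested members), 0.24 for 6 to 8 Mb (161), 0.18 for 8 to 10 Mb (132), 0.24 for 10 to 12 Mb (148), 0.24 for 12 to 14 Mb (142), 0.17 for 14 to 16 Mb (155) and 0.30 for 16 Mb to the last gene (105). Between 59.6% and 69.0% of the tested members of a bin were above 0. The 2 windows of the left end had medians of 0.18 and 0.20, within the range of the bins. The middle 50% of genes of every bin reached from below 0 to 0.53 or more. A median over many genes varies less than single genes do, so this width does not show whether the bins differ. Of 43 autosomal windows of 2 Mb with at least 20 tested genes, whose medians ranged from -0.14 to 0.29, 6 were at or above the lowest X bin, 2 of them on chromosome I and 4 on chromosome V, and 0 were at or above the highest.

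**Figure D2:**
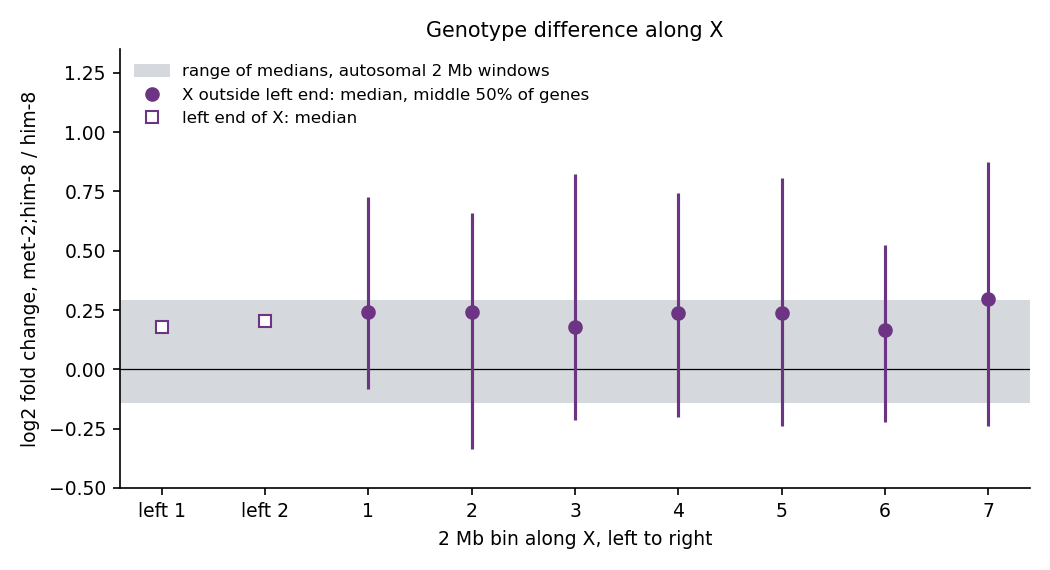
Points give the median log2 fold change of met-2;him-8 over him-8 in each 2 Mb bin of the X outside its left end, numbered from left to right, with lines for the middle 50% of genes, open squares for the 2 windows of the left end, and a grey band for the range of medians of autosomal windows. Medians of all 7 bins lie between 0.17 and 0.30, in the upper part of or just above the autosomal range of -0.14 to 0.29.

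The genes next to the 4 Mb limit had lower or similar levels in met-2;him-8 on either side of it. The last tested genes outside it, C16B8.4 and R02E12.5, had log2 fold changes of -1.42 (SE 0.73) and -0.63 (SE 0.66). The first inside it were hrg-1, a heme transporter, at -0.49 (SE 0.58), and mop-25.1 at 0.05 (SE 0.27). All these values were less than 2 standard errors from 0.

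The bins were comparably populated. A bin held 218 to 341 members, of which 78.5% to 86.1% had reads and 41.1% to 51.7% were tested. The share of counted reads was highest in the bin from 6 to 8 Mb in met-2;him-8 rep1 (0.356%), him-8 rep1 (0.276%) and him-8 rep2 (0.198%). In met-2;him-8 rep2 it was highest in the last bin (0.237%), where the gene F23A7.8, described below, took much of it. Without F23A7.8, an omission chosen after the data were seen, that bin held 0.130% in that library.

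The libraries were then taken singly. For each library, the deviation of a gene from its mean over the 4 libraries was computed on the log2 CPM scale, and the autosomal median was subtracted from the median of the members. This X-linked offset was 0.14 in met-2;him-8 rep1, 0.02 in met-2;him-8 rep2, 0.10 in him-8 rep1 and -0.19 in him-8 rep2. The him-8 replicates were thus 0.29 apart and lay on either side of met-2;him-8 rep2, so the genotypes overlapped on this scale. The median log2 fold change of 0.22, another measure taken from the fit, was also below 0.29. In him-8 rep2 the offset was below 0 in each of the 7 bins, from -0.29 to -0.06. In met-2;him-8 rep1 it was above 0 in each, from 0.06 to 0.25, and so it was in him-8 rep1, from 0.02 to 0.22. In met-2;him-8 rep2 it ranged from -0.13 to 0.20. In the left end the offsets, in the same order of libraries, were 0.13, -0.05, 0.07 and -0.18, so that him-8 rep2 was lowest there too.

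**Figure D3:**
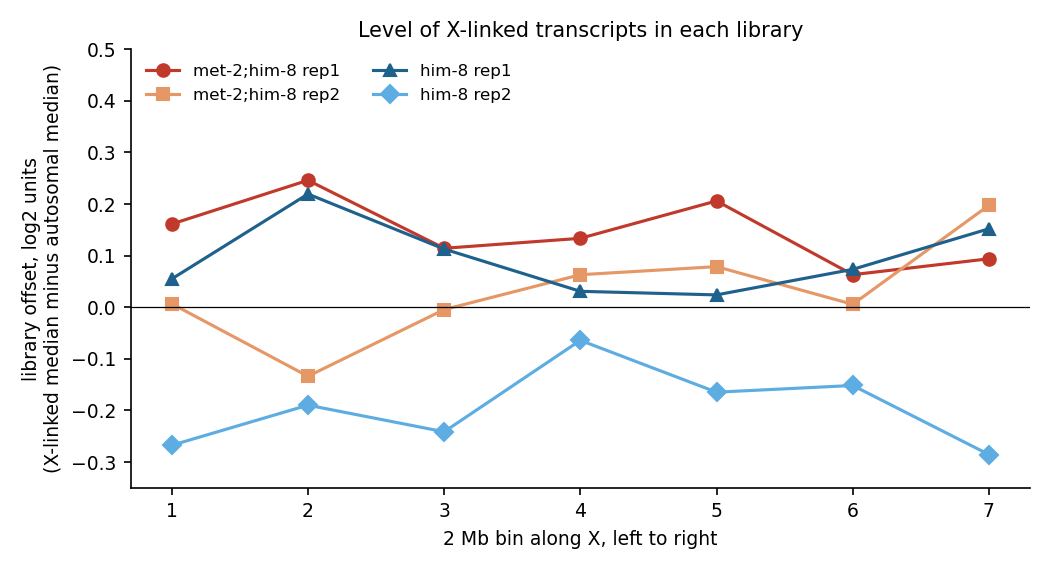
Lines give, for each of the 4 libraries, the median deviation of X-linked members in each 2 Mb bin from their mean over libraries, minus the autosomal median, in log2 units. The line of him-8 rep2 lies below 0 in all 7 bins, and the lines of met-2;him-8 rep1 and him-8 rep1 lie above 0 in all of them.

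The low position of him-8 rep2 was also visible gene by gene. Among the 262 members with a mean of at least 10 CPM, this library had the lowest CPM in 107 (40.8%) and the highest in 20 (7.63%). Among autosomal genes at this level it was lowest in 21.7% and highest in 32.6%. Leaving out a library moved the median of the members strongly. It was 0.44 without him-8 rep1, 0.13 without him-8 rep2, 0.17 without met-2;him-8 rep2 and 0.0036 without met-2;him-8 rep1 (autosomes -0.06). In the last case 3 of the 7 bins stayed above 0, and the distance of the members from the autosomes was 0.063, with 6 of the 7 bins above the autosomal median. Without him-8 rep2 this distance was 0.095, with 5 of the 7 bins above the autosomal median. The size of the shift therefore depended on single libraries, met-2;him-8 rep1 and the him-8 replicates in particular.

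By expression class, the median log2 fold change of the members was 0.11 in the lowest quartile, 0.27 in the second, 0.21 in the third and 0.13 in the highest. The autosomal medians were -0.12, 0.09, 0.00 and -0.01, so the distance between X and autosomes was 0.23, 0.19, 0.20 and 0.13. The left end gave 0.08, 0.23, 0.16 and, with 5 genes, -0.16. The third quartile was the most uniform of the well-filled classes, with 114 of 161 members (70.8%) above 0 and a median standard error of 0.34, against 178 of 323 (55.1%) and 1.09 in the lowest. The X-linked deviation was also set against autosomal genes of the same quartile, library by library. In the lowest quartile it was 0.09 in met-2;him-8 rep1, 0.14 in met-2;him-8 rep2, -0.07 in him-8 rep1 and -0.16 in him-8 rep2. In the second quartile, in the same order of libraries, it was -0.038, 0.18, -0.12 and -0.044. Both him-8 libraries thus lay below both met-2;him-8 libraries in these 2 quartiles, which hold 323 and 484 of the 989 tested members, by a narrow gap in the second. In the third quartile the values were 0.17, 0.00, 0.12 and -0.25, and in the highest, with 21 members, 0.09, -0.18, 0.04 and -0.15, so that there the genotypes overlapped.

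With all 4 libraries in the fit, transcript length divided the members more sharply than position or level did. That order did not hold without met-2;him-8 rep2, as given below. Exon lengths from the WBcel235 annotation were known for 2052 of the 2125 members, and 4 length classes of equal size were set over all tested genes, a grouping chosen after the data were seen. The 311 tested members of the longest class (above 2204 bases) had a median log2 fold change of 0.49, with 244 (78.5%) above 0. The shorter classes, from the shortest up, had medians of 0.16, -0.02 and 0.16. In the left end the medians were 0.01, 0.17, 0.19 and 0.31. Among autosomal genes they were -0.04, -0.03, -0.02 and 0.08, so the longest class was the highest there too, by a smaller step.

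The step came from different libraries on its upper and lower side. In the longest class the median deviation of the members was 0.51 in met-2;him-8 rep2 and -0.13, -0.11 and -0.16 in met-2;him-8 rep1, him-8 rep1 and him-8 rep2. In the 3 shorter classes met-2;him-8 rep2 was at -0.21 to -0.18 while met-2;him-8 rep1 was at 0.23 to 0.25. In these classes, from the shortest up, him-8 rep1 was at 0.28, 0.24 and 0.12 and him-8 rep2 at -0.20, -0.10 and -0.15. The met-2;him-8 replicates thus lay on opposite sides of the mean in every class, and the him-8 replicates in the 3 shorter ones. Met-2;him-8 rep2 had the highest CPM of the 4 libraries in 183 of the 311 longest members (58.8%) and in 12.7% to 21.3% of the members of a shorter class. In autosomal genes these shares were 48.0% and 20.8% to 28.4%. Without met-2;him-8 rep2 the median log2 fold change of the longest class was 0.0026 (autosomes -0.20). The shorter classes, from the shortest up, were then at 0.27, 0.22 and 0.31 (autosomes -0.068, 0.043 and 0.010), so the longest class was the lowest. Without met-2;him-8 rep1 the median of the longest class was 0.63 (autosomes 0.25), and the medians of the shorter classes were -0.36, -0.27 and -0.22 (autosomes -0.15, -0.22 and -0.15). The longest class held 31.9% of the tested members with a length and 24.0% of such autosomal genes. The part of length in the X-linked shift was not tested further.

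**Figure D4:**
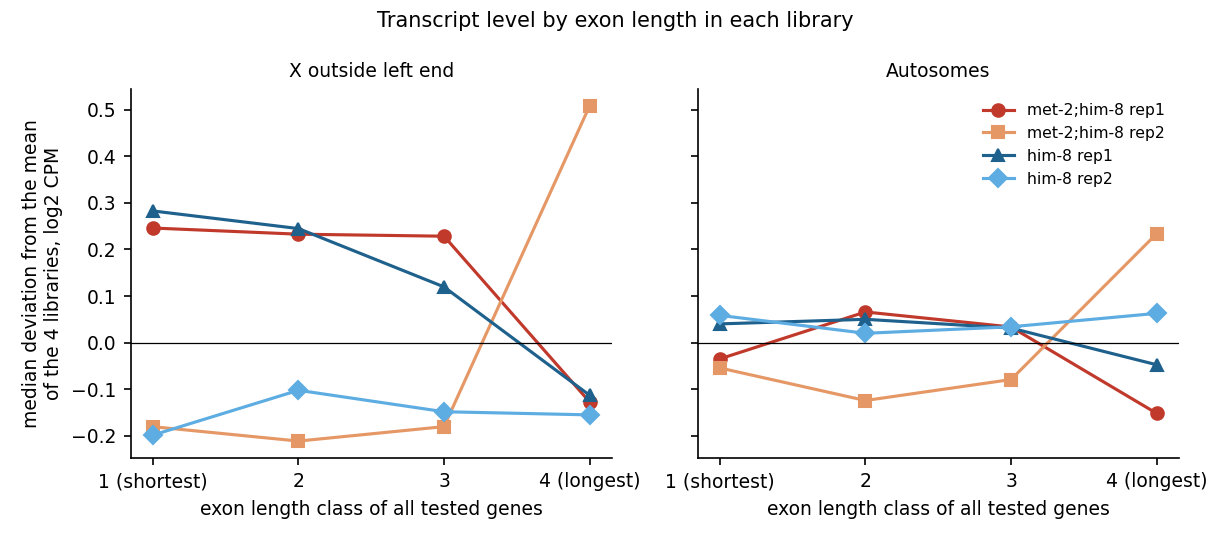
Lines give the median deviation of a gene from its mean over the 4 libraries (log2 CPM) in each class of exon length, for the X outside its left end (left) and the autosomes (right), with 1 line per library. In the longest class of X-linked genes met-2;him-8 rep2 stands at 0.51 and the other libraries between -0.16 and -0.11.

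In 3 long members this is easily seen. Of dpy-22, which encodes the Mediator subunit MED12 and has 10867 bases of exon, there were 48.7 CPM in met-2;him-8 rep2 and 3.32 CPM in rep1, against 5.36 and 7.67 CPM in him-8. For pqn-65 (6509 bases) met-2;him-8 rep2 had 112 CPM and rep1 10.2 CPM, with 8.75 and 24.5 CPM in him-8. Transcripts of F13B9.1 (5325 bases) were at 6.42 and 57.6 CPM in met-2;him-8 and 6.17 and 10.7 CPM in him-8. In each of these genes the genotypes overlapped, and the log2 fold changes were 2.0 (SE 1.18), 1.88 (SE 1.15) and 1.94 (SE 1.02). They were named after their values were seen.

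The most abundant transcripts of the chromosome came next. By CPM, mrp-4 (X, 9884265 to 9889357 in the coordinates of the deposited table), which encodes an ABC transporter of the multidrug resistance family, led with 911 and 1009 CPM in met-2;him-8 and 846 and 643 CPM in him-8. It took 5.88% to 7.02% of all reads on members. The genotypes did not overlap, and the log2 fold change was 0.37 (SE 0.22, adjusted p = 0.891 in the edgeR test). The leading genes of the other bins were pdi-2, a protein disulfide isomerase, at 267 to 421 CPM, F46H5.3 at 137 to 337 CPM, W07E11.1 at 142 to 317 CPM, R04D3.3 at 118 to 183 CPM, tbh-1 and F23A7.8. The deposited table gives W07E11.1 the same interval as the neuropeptide genes flp-2, flp-3 and flp-28, so its start marks the shared interval. Of these leading genes, R04D3.3 and tbh-1 were lower in both met-2;him-8 libraries and F46H5.3 was higher in both, while the genotypes overlapped in pdi-2 (421 and 301 against 344 and 267 CPM), in W07E11.1 and in F23A7.8.

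Per kilobase of exon the order was another. The highest member was F23A7.8 (X, 16213301 to 16213504, 204 bases of exon), at 391 and 5842 CPM per kilobase in met-2;him-8 and 992 and 1094 in him-8. Its read counts were 1540, 39724, 10495 and 3052. F23A7.4 (X, 16212534 to 16212740, 207 bases), which lies next to it, had 109 and 1087 CPM per kilobase in met-2;him-8 and 166 and 239 in him-8. Both were highest in met-2;him-8 rep2 and lowest in rep1 of the same genotype, so these short genes varied between replicates by more than between genotypes. ZC373.2 had 219 and 252 CPM per kilobase in met-2;him-8 and 223 and 197 in him-8. Y62H9A.5 and Y62H9A.6, which are neighbors, ranged from 160 to 259 and from 118.8 to 270.2, and C07D8.6 from 125 to 212. These 4 had log2 fold changes between -0.13 and 0.16 and overlapping genotypes.

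The 6 members chosen for higher levels in met-2;him-8 lay in expression quartiles 2 and 3. They are the tested members with the smallest unadjusted p among those with at least 50 reads on average and genotypes that do not overlap, so their separation is a condition of the choice. The minimum of reads also limits the choice of members from the lowest quartile, so the quartiles of these 6 do not describe all higher members. F13E6.3 (X, 10680565 to 10682693) had 6.58 and 7.41 CPM in met-2;him-8 and 2.58 and 1.97 CPM in him-8 (log2 fold change 1.61, SE 0.45, unadjusted p = 0.0162 in the edgeR test). The cyclophilin gene cyn-8 had 17 and 17.3 CPM against 8.70 and 7.60 CPM in him-8 (log2 fold change 1.07, SE 0.33). Replicates were also close together in W06D11.1, at 30.9 and 28.7 CPM against 15.7 and 17.2 CPM. For ain-1, which encodes a GW182-type partner of microRNA Argonautes, there were 14.6 and 20.7 CPM in met-2;him-8 and 8.35 and 8.55 CPM in him-8 (log2 fold change 1.06, SE 0.36). At a few CPM were gei-15, at 4.20 and 2.46 against 1.02 and 0.731 CPM, and C10A4.1, at 3.06 and 2.61 against 0.810 and 0.877 CPM. All 6 had an adjusted p of 0.886 (Benjamini-Hochberg) in the quasi-likelihood test of edgeR, and none was called.

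The 6 members chosen in the same way for lower levels in met-2;him-8 included 2 of the highest expression quartile. The gene tbh-1 (X, 15500286 to 15505305), for the tyramine beta-hydroxylase that makes octopamine, an enzyme known from the gonadal sheath as well as from neurons, had 167 and 198 CPM in met-2;him-8 and 244 and 305 CPM in him-8 (log2 fold change -0.59, SE 0.23). It overlaps H13N06.7, and reads of the pair may be split between them. F48E3.4 (X, 7493889 to 7495519) had 159 and 122 CPM in met-2;him-8 and 248 and 225 CPM in him-8 (log2 fold change -0.76, SE 0.23). Both are among the 21 members of the highest quartile. In F48E3.4 the genotypes lay further apart than their replicates, while in tbh-1 the him-8 replicates were further apart than the nearest libraries of the genotypes. C17G1.2 was at 21.9 and 16.2 CPM against 36.7 and 40.9 CPM, a log2 fold change of -1.03 (SE 0.30). C09B8.4 (X, 6018446 to 6019898) had 0.363 and 1.47 CPM in met-2;him-8, from 7 and 49 reads, against 7.93 and 5.19 CPM in him-8 (log2 fold change -2.81, SE 0.80). Transcripts of glt-4, a glutamate transporter gene, were at 1.61 and 2.64 against 6.77 and 5.19 CPM, and those of mbr-1, which encodes a transcription factor, at 1.30 and 0.990 against 2.74 and 3.36 CPM. These 6 also had an adjusted p of 0.886 in the edgeR test. Markers of the gonadal sheath and spermatheca (5 genes) summed to 506 and 1639 CPM in met-2;him-8 and 733 and 983 CPM in him-8. The sum was carried by the filamin gene fln-1, at 345 and 1502 against 523 and 759 CPM. The sheath innexin genes inx-8, at 111 and 101 against 158 and 171 CPM, and inx-9, at 41.3 and 31.2 against 46.8 and 46.1 CPM, were lower in both met-2;him-8 libraries, as tbh-1 was. Their log2 fold changes were -0.63 (SE 0.21) and -0.36 (SE 0.28). Of the transcription factor genes on the list, lim-7 had 5.13 and 2.91 against 4.32 and 6.51 CPM and ceh-18 2.75 and 1.77 against 1.47 and 0.804 CPM. The part of sheath RNA in these differences was not tested.

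**Figure D5:**
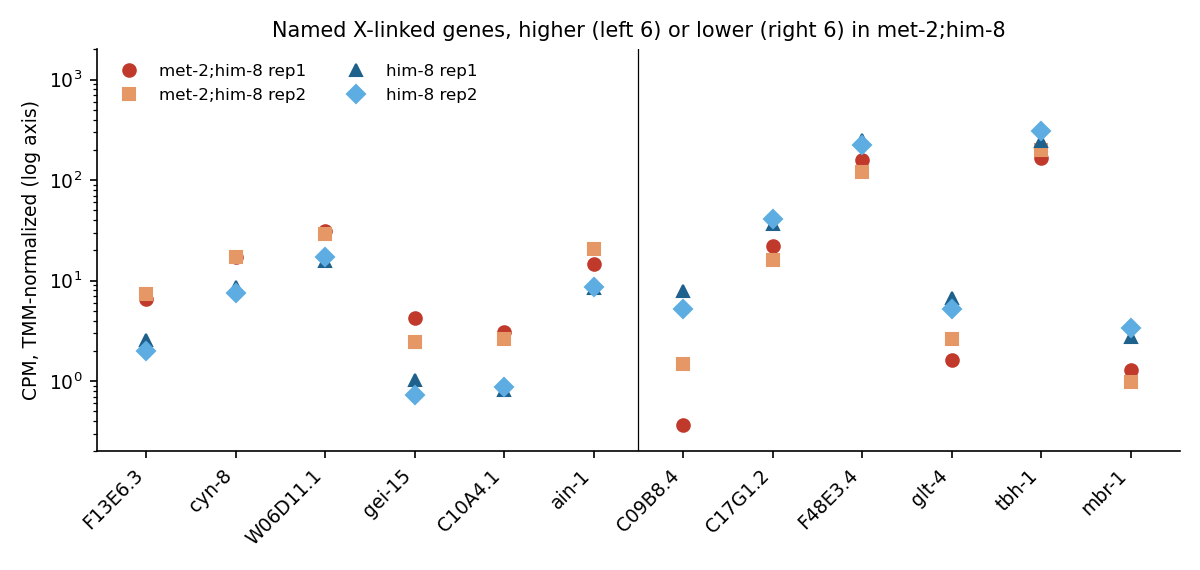
Symbols give TMM-normalized CPM on a log axis in each of the 4 libraries for the 6 members chosen as higher (left) and the 6 chosen as lower (right) in met-2;him-8. The choice required that genotypes do not overlap. Replicates lie close together in cyn-8, at 17 and 17.3 CPM in met-2;him-8, and apart in C09B8.4, at 0.363 and 1.47 CPM.

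Gene lists ordered by role were then read across the chromosome. The X carries regulators that count X chromosomes and set sex and dosage compensation, and 4 of these are members, all tested. The switch gene xol-1 was near the floor at 0.622 and 0.960 CPM in met-2;him-8 and 1.02 and 1.53 CPM in him-8. The nuclear receptor gene sex-1, an X signal element, had 12.6 and 9.96 against 8.39 and 10 CPM. Of the genes that bring the dosage compensation complex to the X, sdc-1 had 14.9 and 28.6 against 18 and 17.1 CPM and sdc-2 had 1.30 and 8.79 against 2.22 and 2.19 CPM. The list had 3 members above 0 and 1 below, a median log2 fold change of 0.30 and 0 called. In sdc-1 and sdc-2 met-2;him-8 rep2 alone was high.

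Chromatin and transcription regulators numbered 10, all tested, with 8 above 0, 2 below and 0 called, and their median log2 fold change was 0.37. Met-2;him-8 rep2 was the highest library in 9 of them, which leaves daf-12. Transcripts of hpl-1, a heterochromatin protein 1 homolog that binds methylated H3K9, were at 4.51 and 9.18 CPM in met-2;him-8 and 4.65 and 2.27 CPM in him-8 (log2 fold change 0.97, SE 0.61), and the genotypes overlapped. The H3K27 demethylase gene utx-1 was at 14.0 and 23.6 against 11.5 and 12.4 CPM, without overlap, and its log2 fold change was 0.65 (SE 0.39). Of the neighbors lin-15A and lin-15B, which repress germline and vulval programs in the soma, lin-15B had 10.4 and 56.1 against 16.3 and 32.9 CPM and lin-15A 3.37 and 15.5 against 4.49 and 10.9 CPM. In this pair the met-2;him-8 replicates lay on either side of the him-8 replicates. The nuclear envelope SUN protein gene unc-84 was at 39.8 and 75.3 against 53.1 and 53.6 CPM.

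Germ line and early embryo genes were 7, all tested, with 5 above 0, 2 below, a median log2 fold change of 0.32 and 0 called. The P granule genes meg-1 and meg-2, which are neighbors, had 126 and 162 against 101 and 130 CPM and 20.7 and 26.1 against 24.2 and 20.7 CPM. The microRNA Argonaute gene alg-1 was at 21.6 and 30.3 CPM in met-2;him-8 and 16.5 and 8.48 CPM in him-8, with a log2 fold change of 1.05 (SE 0.45). Like its partner ain-1 it did not overlap between genotypes, and neither did cdk-4, a cell cycle kinase gene, at 17.6 and 10.3 against 8.66 and 5.34 CPM. The other members were mes-1, which acts in the asymmetric division of the germline blastomere, with a log2 fold change of -0.10 (SE 0.33), and mom-1, a Porcupine homolog needed for Wnt secretion, with -0.21 (SE 0.40).

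Of 9 signalling and somatic gonad genes, 7 were tested, with 4 above 0, 3 below and 0 called. The scaffold gene lin-2, which places the epidermal growth factor receptor in vulval cells, was at 2.85 and 2.31 CPM in met-2;him-8 and 0.694 and 0.292 CPM in him-8, and its log2 fold change was 2.32 (SE 0.74). The Grb2 homolog gene sem-5 had 25.3 and 22.6 against 29.9 and 26.6 CPM, and the syndecan gene sdn-1 16.1 and 17.4 against 12.6 and 13.2 CPM. Small differences between closely matched replicates thus ran in either direction.

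Genes known from neurons were mostly too low to test. Of 18 neuropeptide genes 15 had reads and 0 passed the filter, and of 12 neuronal genes 4 were tested (unc-10, unc-18, unc-115 and syd-2), each highest in met-2;him-8 rep2. The synaptic scaffold gene syd-2 is an example, at 0.725 and 11 CPM in met-2;him-8 and 2.37 and 4.75 CPM in him-8. Of 8 twk potassium channel genes and 10 pgp transporter genes, 2 each were tested, and the table gives pgp-12, pgp-13 and pgp-14 a shared interval. Of 5 epidermal genes only dpy-23, which encodes an adaptor subunit of endocytic vesicles and acts in many cells, was tested, at 23.1 to 36.3 CPM. Of 6 muscle genes 5 were tested, with 4 above 0, 1 below and 0 called, and the troponin T gene mup-2 was at 39.1 and 33.8 against 31.7 and 25.4 CPM. Of 4 genes used in most cells 3 were tested, with 2 above 0, 1 below and 0 called, and the proton pump subunit gene vha-12 was at 121 and 98.4 against 89.2 and 56.6 CPM. The actin gene act-4 and the elongation factor gene eef-1A.2 have near-identical copies elsewhere in the genome, and their values are uncertain for that reason.

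Intestinal genes differed widely between libraries. Of 4 on the list 3 were tested, with 2 above 0, 1 below and 0 called. The aspartyl protease gene asp-4 had 71.9 and 19.7 CPM in met-2;him-8 and 27.6 and 10.1 CPM in him-8, and the peptide transporter gene pept-1 had 9.53 and 1.59 against 6.90 and 1.46 CPM. Outside the lists, and named after their values were seen, asp-3 (X, 6791152 to 6792532), another aspartyl protease gene, had 311 and 91.6 CPM in met-2;him-8 and 91.0 and 19.6 CPM in him-8, with a log2 fold change of 1.86 (SE 0.90). K10C2.3 (X, 6444195 to 6446701) had 71.9 and 4.86 CPM in met-2;him-8 and 5.26 and 0.804 CPM in him-8, and M60.2 (X, 8242272 to 8247760) 36.3 and 1.59 against 3.39 and 1.02 CPM. In asp-3, asp-4, K10C2.3 and M60.2 met-2;him-8 rep1 was highest and him-8 rep2 lowest. These are also the highest and lowest libraries of the summed intestinal markers (1690 and 401 CPM). The spread of that sum between replicates was largely carried by asp-1, at 1113 and 426 against 291 and 51.1 CPM. Replicates were close in vit-2 (282 and 268 against 193 and 183 CPM) and vit-6 (289 and 272 against 161 and 166 CPM). The marker ges-1 had 5.34 and 1.08 against 2.47 and 1.02 CPM. The remaining marker, elt-2, is also on the list of intestinal members and was near the floor, at 0.155 and 0.450 against 0.733 and 0.0731 CPM. Its log2 fold change was -0.47 (SE 1.34), and him-8 rep1 was its highest library. The part of intestinal RNA in these differences was not tested.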

How the data were processed

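Poly(A) RNA of dissected gonads was sequenced by the authors, aligned with STAR and compared with Cuffdiff 2.2.1. The authors deposited estimated counts of reads for each gene and each of the 4 libraries, without scaling for depth. The tool and strand setting behind these counts are not given in the sources used here. The deposited comparison table supplied gene positions only. Its RPKM values, fold changes and p-values are the authors' own comparison and were not used. It names no genome build (the study names WS220 for its repeats), and its starts, counted from 0, are printed counting from 1. WBcel235 supplied exon lengths only.

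The planned tests assumed whole counts. In each library 53 to 66 genes carried a fractional count, and every count was rounded. The test was the quasi-likelihood test (glmQLFTest) of edgeR 4.0.16 under R 4.3.3 (TMM normalization, default filterByExpr, Benjamini-Hochberg adjustment, threshold 0.05, all 4 libraries, no replicate block). CPM are TMM-normalized, and log2 CPM used a prior count of 2. Standard errors (SE) came from the log2 fold change, with him-8 as the denominator, and the F statistic. The fit was tested on simulated data. An exact two-sided permutation test of 2 against 2 libraries cannot give a p below 0.333. The labels give replicate numbers and the methods describe separate dissections, and no batch is named. The p-values measure the spread between these preparations.

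The members, gene lists, markers and rules for named genes were chosen with earlier results of these data known. Named genes were, in each direction, the 6 members of smallest unadjusted p among those with a mean of at least 50 reads and genotypes that do not overlap, the 6 highest per kilobase, the highest by CPM in each bin, members with 0 reads in 1 genotype and at least 10 in both libraries of the other (0 genes), and listed genes of at least 1 CPM on average. Alternatives were other normalizations (RLE, upper quartile, TMM from autosomal genes), other filters, DESeq2 1.42.0, a replicate block and leaving out each library.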

Additional observations from a re-analysis of the deposited data

How the results depend on the processing

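Under RLE, upper-quartile or autosomal TMM factors and under DESeq2, the median log2 fold change of the members stayed within 0.21 to 0.24 and was above 0 in all 7 bins. Members called numbered 0 in these fits and in each fit that left out a library, 9 (8 higher, 1 lower, of 113 genes) without the filter on low counts, and 9 (7 higher, 2 lower, of 144 genes) with the replicate number as a block, where the shares were 0.910% of tested members and 1.32% of all tested genes. The block gave a member median of 0.13. Deviations of same-numbered libraries correlated at 0.358 across genes, over 2 numbers, and the labels do not say what a number marks. Called in both of these fits were K10C2.3, asp-3 and M60.2, all estimated higher in met-2;him-8 and named beside the intestinal markers, and C09B8.4, lower at -2.79 and -2.98. In K10C2.3 and M60.2 the genotypes overlapped, with met-2;him-8 rep2 below him-8 rep1. Without the filter F23A7.8, F23A7.4, pqn-65, F13B9.1 and dpy-22 were also called higher, and with the block Y34B4A.6, F22H10.3, lec-8 and spp-14 higher and mxl-3 lower. None of the 12 members chosen by p reversed under any alternative run. They were chosen for genotypes that do not overlap in these libraries, so a reversal was hardly possible and this result gives no support. The cause of the differences between fits was not tested.

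Other values that moved by more than the spread between replicates were the bin from 10 to 12 Mb (0.18 without the filter and 0.11 with the block), the bin from 12 to 14 Mb (0.057 without the filter) and the lowest expression quartile (0.52 with a mean of at least 1 CPM, which removes most of its genes). With the block that quartile was -0.073, a change of sign within the spread. By exon length, alternatives chosen after the data were seen, signs also changed within the spread. The shortest class was -0.16 without the filter, and the second was 4.7e-05 with autosomal TMM factors, 0.039 with a mean of at least 1 CPM and 0.0203 with DESeq2. Within that spread, but by more than 1.5 times, moved the bins from 6 to 8 Mb (0.053 without the filter, 0.13 with the block), from 8 to 10 Mb (0.071 without the filter), from 12 to 14 Mb (0.14 with the block), from 14 to 16 Mb (0.088 with the block) and from 16 Mb on (0.15 without the filter, 0.18 with the block). With the block the exon classes from the shortest were 0.068, -0.045, 0.086 and 0.30, and without the filter the second was -0.10. The lowest expression quartile was 0.0496 with upper-quartile factors and the highest 0.069 with the block.

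Leaving out each library in turn gave 0.0036 to 0.44 for all members. The bins from left to right ranged from 0.10 to 0.43, -0.22 to 0.46, -0.024 to 0.44, 0.032 to 0.39, -0.049 to 0.46, -0.0301 to 0.35 and 0.10 to 0.54. The expression quartiles from the lowest ranged from -0.24 to 0.67, 0.10 to 0.39, 0.10 to 0.33 and -0.10 to 0.14, and the exon length classes from the shortest from -0.36 to 0.58, -0.27 to 0.32, -0.22 to 0.39 and 0.0026 to 0.63. A lone library left in a genotype was taken to vary like the others. The depth of him-8 rep2 limits members of low level, where 3 reads are 0.210 CPM.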
